A study of Danio rerio with 3 samples.

Results

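Collagen genes were taken as every gene whose symbol begins with col, a number, the letter a and a further number. In single-cell RNA sequencing of the otic region of zebrafish embryos, 54 of the 25109 genes in the matrices met this rule. Of these, 39 had at least 100 UMIs (unique molecular identifiers, each counting 1 captured transcript) over all kept cells, as did 16178 of all genes. A further 14 had 1 to 99 UMIs and col10a1a had 0. The 54 genes carry 52 distinct symbols, since col6a3 and col19a1 each appear for 2 gene identifiers. Here col6a3 is ENSDARG00000077139 and col19a1 is ENSDARG00000076163.

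The study dissected tissue around the otic vesicle from embryos labelled about 22 hours post-fertilization (the study's methods also name earlier stages, and how stages were shared among libraries cannot be told from the labels) and made 1 library for each shox2 genotype, with embryos of the same genotype pooled. The WT library came from shox2+/+ embryos that carried the neurog1:dsRed and neurod1:EGFP transgenes. The shox2Δ/Δ library came from non-fluorescent embryos of in-crosses of Tg(shox2Gal4/Δ; UAS:GFP) fish, where Δ is a CRISPR/Cas9 deletion aimed at exons 1 and 2. The library labelled shox2Δ/+ is given by its label as heterozygous, and neither the labels nor the methods name the transgenes it carries. With 1 library per genotype there was no replicate, so no test between genotypes was possible, and genotype cannot be told apart from transgenes, parents, collection or library. Intervals in brackets are exact 95% Poisson intervals of a level, they cover counting error only, and a level is in CPM (UMIs per 1000000 UMIs of the same cells).

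Cells were kept from 500 up to but not including 6500 genes, where mitochondrial UMIs made up under 5%, which left 8548 WT, 6672 shox2Δ/Δ and 8233 shox2Δ/+ cells, with a median of 16570 to 19450 UMIs. Transcripts of shox2 were at 2.201, 0.999 and 4.52 CPM, but the library counts transcript 3′ ends, which the deletion does not cover, so this alone does not check the labels. By RT-qPCR of individual embryos the paper reported shox2 transcript as nearly absent in mutants and lower than WT in heterozygotes. That assay used embryos at a later stage and not dissected otic tissue. That was not the order here, where shox2Δ/+ was highest. The libraries also differed in the tissue they held, since a cluster named from eye markers had 6 WT, 112 shox2Δ/Δ and 449 shox2Δ/+ cells. The paper reports shox2 in the diencephalon, and the part of tissue content in this order was not tested. EGFP was at 253 CPM in WT, 3.65 in shox2Δ/Δ and 261 in shox2Δ/+, and DsRed at 135, 0.549 and 2.21 CPM. Of the mutant cells, 526 (7.88%) shared their barcode with a cell of another library that had over 10 times their UMIs, as did 149 shox2Δ/+ and 8 WT cells. These cells held 0.470% of the kept mutant UMIs. The counts of collagens past 1.5-fold, summed over classes, came to 58 with and without them between shox2Δ/+ and WT, and to 20 rather than 19 between shox2Δ/Δ and shox2Δ/+. The WT library stood apart from both others: in the 8 cell classes compared, 13.9% to 27.6% of all genes lay more than 1.5-fold from it, against 2.65% to 5.37% between shox2Δ/Δ and shox2Δ/+.

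Collagens are secreted proteins in which 3 chains wind into a triple helix. Fibrillar collagens (types I, II, III, V and XI among them) assemble into the fibrils of skin, bone, cartilage and the notochord sheath. Type IV collagens form the network of basement membranes, beneath which type VII forms anchoring fibrils, and the multiplexins of types XV and XVIII are bound to basement membranes. FACIT collagens such as types IX, XII and XIV sit on fibril surfaces, and type VI forms beaded filaments around cells. In the embryo the inner ear lies between hindbrain, epidermis and periotic mesenchyme, which later forms the cartilage capsule, and basement membranes separate these tissues.

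Cell classes were defined by clusters of cells named from marker genes, with no collagen gene among the markers or among the genes used for clustering, and each is called X-like. Of all collagen UMIs, 63.2% came from 15 fibrillar genes, 15.0% from 12 FACIT genes, 9.26% from the 6 type IV genes and 8.19% from the 3 multiplexins. Head mesenchyme-like cells made up 6.12% of kept cells and held 30.6% of collagen UMIs. The 41 notochord-like cells made up 0.175% of cells and held 8.58% of them. Epidermis-like cells held 12.3% and floor plate-like cells 6.69%, whereas neural-like cells, 39.7% of all cells, held 9.79%. The 116 placodal ectoderm-like cells, 0.495% of cells, held 7.38%, and cells of unnamed clusters, 24.2% of cells, held 11.8%.

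The summed level of all collagens differed far more between classes than between libraries. Floor plate-like cells were at 17871 CPM in WT, 14101 in shox2Δ/Δ and 15414 in shox2Δ/+. Head mesenchyme-like cells followed with 9573, 8502 and 9098 CPM, epidermis-like cells with 6764, 4746 and 4304, and otic-like cells with 1735, 1736 and 1719. The order of these 4 classes was the same in all libraries. Lateral plate mesoderm-like cells had 963, 975 and 1096 CPM and endothelium-like cells 775, 1023 and 674, and these changed places in shox2Δ/Δ. Crest-like cells had 471, 471 and 465 CPM and neural-like cells 374, 567 and 558. In notochord-like cells collagens made up 102551, 101360 and 84562 CPM, but only 7, 20 and 14 cells carried this name, so they are described and not compared. Placodal ectoderm-like cells, 41, 31 and 44 in number, were not compared either. Over the pooled libraries their collagens summed to 15501 CPM, near the 15559 CPM of floor plate-like cells.

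**Figure D1:**
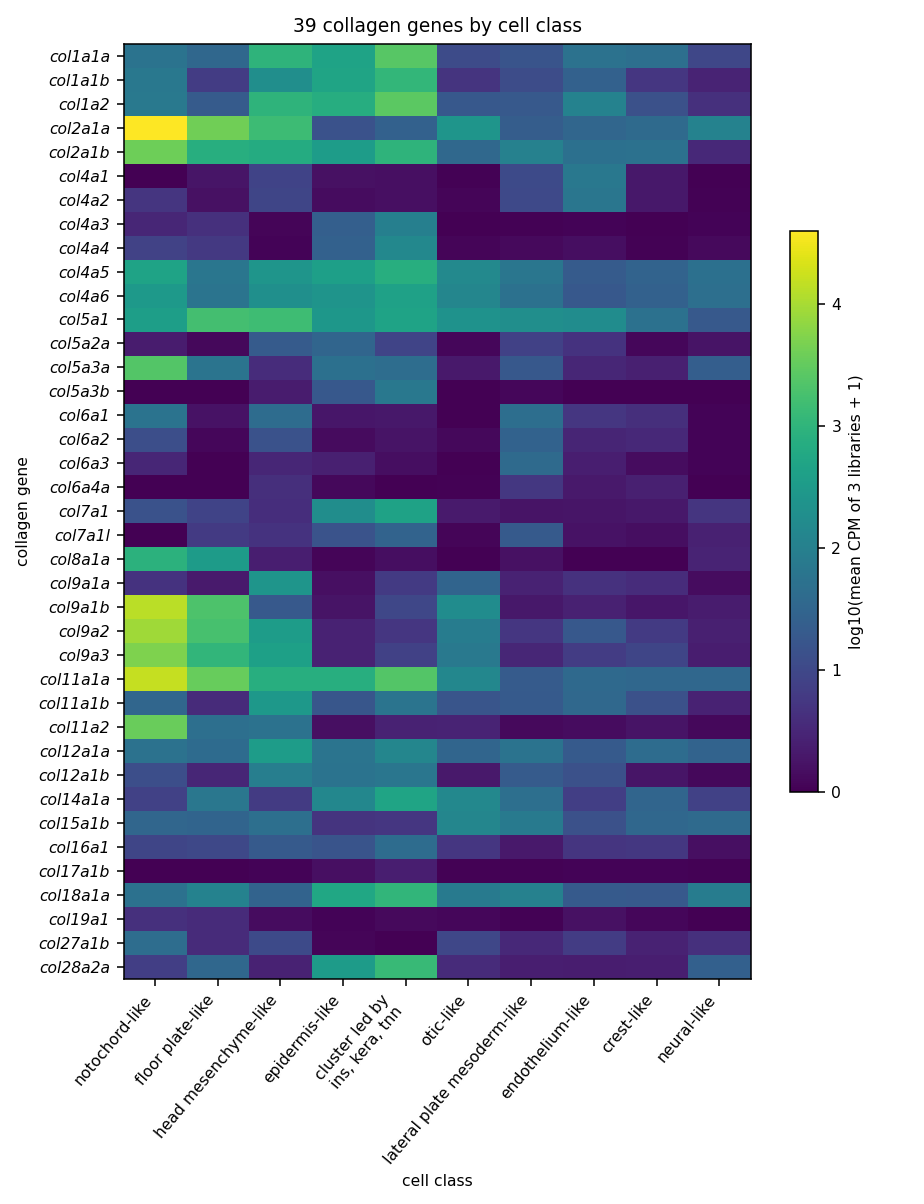
Mean level of each of the 39 collagen genes with at least 100 UMIs (rows) in 10 cell classes or clusters (columns), coloured by log10 of the mean CPM over the 3 libraries plus 1. The highest values lie in the notochord-like, floor plate-like, head mesenchyme-like and epidermis-like columns and in the cluster led by ins, kera and tnn, and the neural-like column is low for most genes.

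For most collagens the class of highest level was the same in every library. Among the classes with at least 50 cells in each library, 32 of the 39 genes were highest in the same class in all 3 libraries (82.1%), against 49.3% of all genes with at least 100 UMIs. That class was epidermis-like for 10 genes, floor plate-like for 8, head mesenchyme-like for 7, lateral plate mesoderm-like for 4, endothelium-like for 2 and otic-like for 1. The 7 whose highest class changed were col4a6, col5a1, col6a1, col11a2, col14a1a, col19a1 and col27a1b. Over the pooled libraries the highest class stood above the next by 1.07 times for col14a1a up to 157 times for col8a1a. This margin was small also for some genes with a steady class, such as col2a1b at 1.14. A level at least 4-fold above that of all other kept cells, in all 3 libraries, was reached by 16 collagens in head mesenchyme-like cells (2.1% of all genes), 9 in floor plate-like cells (4.74%), 9 in epidermis-like cells (7.37%), 5 in lateral plate mesoderm-like cells (2.82%) and 2 in endothelium-like cells (3.91%). None reached it in otic-like cells (2.03% of all genes), crest-like cells (0.538%) or neural-like cells (0.834%).

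Type I collagen, the main fibril of skin and connective tissue, was found in head mesenchyme-like and epidermis-like cells. The zebrafish has duplicate α1(I) genes, col1a1a and col1a1b, and 1 α2(I) gene, col1a2. In head mesenchyme-like cells col1a1a was at 1047 CPM (1028 to 1065) in WT, 929 (909 to 950) in shox2Δ/Δ and 1001 (981 to 1021) in shox2Δ/+. In epidermis-like cells it was at 639, 394 and 376 CPM, and in neural-like cells at 2.93, 8.67 and 13.9. The duplicate col1a1b was higher in epidermis-like cells, at 638, 413 and 428 CPM, than in head mesenchyme-like cells, at 178, 190 and 184. Per UMI of col1a1a there was 0.999 UMI of col1a1b in WT epidermis-like cells and 0.170 in WT head mesenchyme-like cells, with 1.05 and 0.204 in shox2Δ/Δ and 1.14 and 0.184 in shox2Δ/+. The α2 chain gene col1a2 was at 1156, 932 and 908 CPM in head mesenchyme-like cells.

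The chains of type I were found in the same cells. After each head mesenchyme-like cell was thinned to 3000 UMIs, 368 of 535 WT cells held both col1a1a and col1a2, 38 held col1a1a alone and 53 held col1a2 alone. In shox2Δ/Δ 208 of 367 cells held both, and in shox2Δ/+ 251 of 424. A UMI of col1a1a was found in 75.9%, 67.3% and 69.3% of these thinned cells (88.3%, 78.1% and 80.0% before thinning). In neural-like cells thinned to the same depth it was found in 0.898% of WT, 2.47% of shox2Δ/Δ and 3.42% of shox2Δ/+ cells, a class that is not a known source of type I collagen. The median depth per cell was 21683, 19384 and 20066 UMIs in head mesenchyme-like and 18467, 18321 and 15943 in neural-like cells.

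Type V collagen, which is built into type I fibrils and limits their width, was broader. Its α1 gene col5a1 was at 1977 CPM (1888 to 2069), 1545 (1479 to 1613) and 1587 (1525 to 1651) in floor plate-like cells of WT, shox2Δ/Δ and shox2Δ/+. In head mesenchyme-like cells it was at 1520, 1574 and 1475 CPM, so the order of these classes was not the same in every library, and in shox2Δ/Δ their intervals overlapped (1547 to 1601 in head mesenchyme-like cells). The α3 gene col5a3b was at 22.1, 16.1 and 15.3 CPM in epidermis-like cells, 13.2 times the next class over the pooled libraries. Its duplicate col5a3a reached 2107, 2713 and 2188 CPM in notochord-like cells.

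Types II, IX and XI, the collagens of cartilage and of the notochord sheath, formed a group with its own pattern. The α1(II) gene col2a1a was at 4774 CPM (4636 to 4917) in WT, 3328 (3231 to 3428) in shox2Δ/Δ and 3915 (3817 to 4015) in shox2Δ/+ floor plate-like cells. It was at 1502, 1294 and 1551 CPM in head mesenchyme-like, 226, 262 and 272 in otic-like, and 90.6, 116 and 117 in neural-like cells. In the few notochord-like cells it reached 42983, 42580 and 35209 CPM. Its duplicate col2a1b was nearly even between floor plate-like cells (878, 698 and 753 CPM) and head mesenchyme-like cells (636, 654 and 722 CPM). In neural-like cells there were 0.0229, 0.0236 and 0.0210 UMIs of col2a1b per UMI of col2a1a, and in head mesenchyme-like cells 0.423, 0.505 and 0.465.

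The duplicate genes for the α1 chain of type IX, a FACIT collagen that coats type II fibrils, divided the tissues between them. Head mesenchyme-like cells had col9a1a, at 286 CPM (276 to 295), 208 (198 to 218) and 252 (242 to 262), and little col9a1b, at 16.7, 15.7 and 23.1 CPM. Floor plate-like cells had col9a1b, at 2031 CPM (1941 to 2125), 2105 (2028 to 2184) and 2200 (2127 to 2275), with 0, 3 and 2 UMIs of col9a1a. Notochord-like cells were alike, with 13965, 14422 and 11658 CPM of col9a1b and 0, 0 and 3 UMIs of col9a1a. Otic-like cells had both, with col9a1b at 212, 146 and 162 CPM and col9a1a at 37.7, 21.9 and 28.9. Of the thinned otic-like cells, 4 of 208 in WT, 1 of 153 in shox2Δ/Δ and 0 of 131 in shox2Δ/+ held both. At the level of col9a1a few thinned cells could show it, so these counts cannot tell whether the genes lay in separate otic-like cells.

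The partner chains of type IX were shared by both tissues. The α2 gene col9a2 was at 1703, 1728 and 1991 CPM in floor plate-like and 458, 248 and 349 in head mesenchyme-like cells. The α3 gene col9a3 was at 1317, 871 and 984 CPM in floor plate-like and 381, 413 and 443 in head mesenchyme-like cells. In thinned floor plate-like cells col2a1a and col9a1b were together in 51 of 58 WT, 55 of 77 shox2Δ/Δ and 91 of 108 shox2Δ/+ cells.

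**Figure D2:**
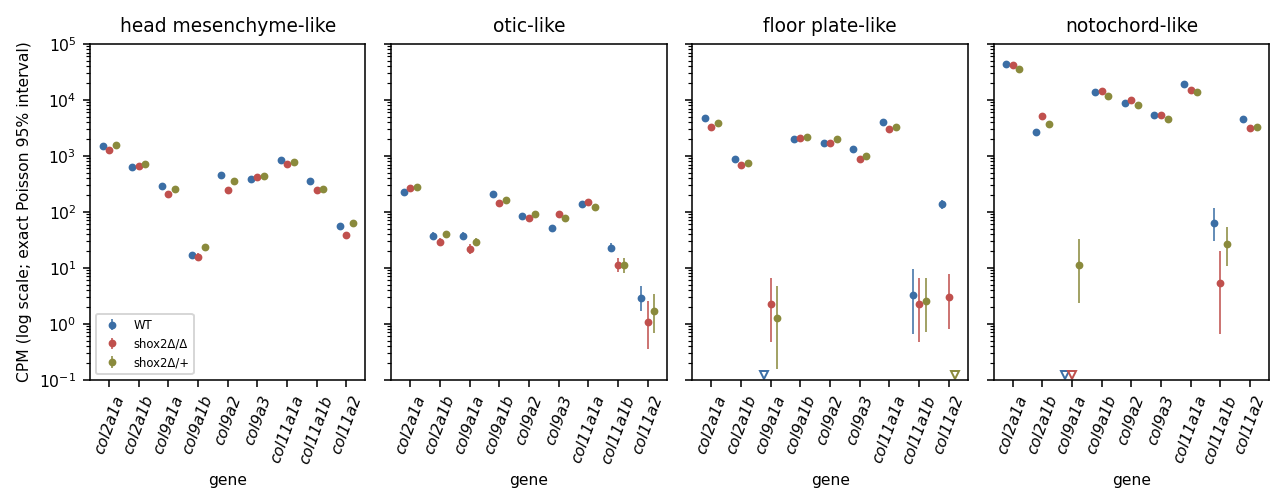
Levels (CPM, log axis) of the collagen genes of types II, IX and XI in 4 cell classes, with points for the 3 libraries, bars for exact Poisson 95% intervals and open triangles for 0 UMIs. The α1(IX) duplicates trade places, with col9a1a above col9a1b in head mesenchyme-like cells and the reverse in otic-like, floor plate-like and notochord-like cells.

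Type XI collagen, which starts type II fibrils, was also unevenly divided between its α1 duplicates, but did not trade places as type IX did. In floor plate-like cells col11a1a was at 4001, 2973 and 3225 CPM and col11a1b at 3.21, 2.26 and 2.58. Head mesenchyme-like cells held both, with col11a1a at 840, 709 and 763 CPM and col11a1b at 355, 241 and 254. The α2 gene col11a2 was at 4538, 3107 and 3240 CPM in notochord-like and 56.2, 38.0 and 63.2 in head mesenchyme-like cells. In floor plate-like cells it was at 136 CPM (113 to 161) in WT, against 3.01 (0.819 to 7.70) in shox2Δ/Δ and 0 UMIs in shox2Δ/+. Those 127 WT UMIs lay in 15 of 62 cells, 88 of them in 4 cells. In the same cells the list of 9 notochord markers, of which 4, 3 and 3 were detected, summed to 38.5, 23.3 and 15.5 CPM, against 1838, 5768 and 4745 in notochord-like cells. Its defining marker tbxta was at 6.41, 3.01 and 2.58 CPM, against 913, 1476 and 1120. Whether notochord RNA had a part in this result was not tested.

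Short-chain collagen of type VIII, known from zebrafish notochord, was nearly confined to the same midline cells among the classes compared. Its α1 gene col8a1a was at 399, 353 and 240 CPM in floor plate-like cells, a smallest fold of 84.4 over all other kept cells. In notochord-like cells it was at 1163, 970 and 585 CPM. The highest level in another class with at least 50 cells was 157 times below that of floor plate-like cells, over the pooled libraries.

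The 6 type IV chain genes, which build basement membranes in fixed sets of chains, are known as 3 pairs. The pair col4a1 and col4a2, which makes up the most widespread network, was highest in endothelium-like cells, the lining of vessels. There col4a1 was at 83.4 CPM (72.9 to 95.1), 61.0 (49.3 to 74.7) and 58.0, and col4a2 at 56.7, 50.7 and 83.2 CPM. Their smallest folds over all other kept cells were 48.8 and 38.2. The pair col4a3 and col4a4, partners of α5 in specialised membranes such as that of the kidney filter, was found in epidermis-like cells at 37.1, 21.5 and 14.2 CPM and 30.0, 22.0 and 25.1 CPM. Both were also among the 10 leading genes of a small placodal ectoderm-like cluster, where col4a4 was higher in each library than in epidermis-like cells. The third pair was spread more widely. Its gene col4a5 was at 503.9, 377 and 294 CPM in epidermis-like, 252, 239 and 250 in head mesenchyme-like, 165, 139 and 133 in otic-like and 33.5, 57.8 and 56.4 in neural-like cells. Its gene col4a6 was at 343, 208 and 180 CPM in epidermis-like, 203, 189 and 197 in head mesenchyme-like, 159, 104 and 127 in otic-like and 41.6, 50.1 and 50.9 in neural-like cells, so its highest class was head mesenchyme-like in shox2Δ/+ while that of col4a5 was epidermis-like throughout.

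In a reference annotation each of these type IV pairs consists of genes that neighbour each other, as do col9a2 and col16a1, and these were the 4 neighbouring pairs among the collagens. Among type IV genes, col4a1 with col4a2 and col4a3 with col4a4 were neighbours with a shared highest class. The pair col9a2 and col16a1 did not share a class, since col9a2 was highest in floor plate-like cells and col16a1, a FACIT gene, in head mesenchyme-like cells at 22.7, 17.9 and 16.1 CPM.

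Of the genes for anchoring collagens, col7a1 was found in epidermis-like cells, whereas its relative col7a1l was shared between those and lateral plate mesoderm-like cells. The gene col7a1, whose product forms anchoring fibrils under the skin, was at 246 CPM (231 to 262), 157 (149 to 165) and 140 (133 to 148) in epidermis-like cells, a smallest fold of 13.6. The gene col7a1l was highest in lateral plate mesoderm-like cells at 13.1, 24.01 and 21.3 CPM, but only 1.27 times the next class over the pooled libraries. In epidermis-like cells it was at 11.3, 17.8 and 13.3 CPM, and in the epidermis-like cluster led by cfd at 20.8, 34.8 and 33.5. The type XVII genes of hemidesmosomes were scarce, with 102 UMIs of col17a1b, highest in epidermis-like cells in all 3 libraries, and 26 of col17a1a over all kept cells.

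The multiplexins parted by tissue. The gene col18a1a, source of endostatin, was highest in epidermis-like cells at 704, 541 and 420 CPM, and it was at 56.6, 107 and 94.2 CPM in neural-like cells. The gene col15a1b was the only collagen highest in otic-like cells in all 3 libraries, at 116 CPM (107 to 125), 124 (114 to 134) and 143 (131 to 154). In lateral plate mesoderm-like cells it was at 72.0, 60.7 and 94.6 CPM. Within that class most of it came from 1 cluster of 56, 31 and 65 cells, led by the cardiac muscle genes myh7, cmlc1 and myl7, which had 418, 220 and 587 UMIs of the gene and 566, 426 and 437 CPM. The class's other cluster, led by aldh1a2 and tcf21, had it at 28.1, 28.5 and 23.4 CPM.

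Type VI collagen, which forms beaded filaments around mesenchymal cells, was raised in part of the lateral plate mesoderm-like cells. In this class col6a3 was at 30.5 CPM, 33.6 (29.2 to 38.4) and 50.1 (45.3 to 55.3), a smallest fold of 64.4 over all other kept cells. Its UMIs lay in 14.5%, 15.0% and 18.1% of the cells. The cluster led by aldh1a2 and tcf21 held 276, 214 and 386 of these UMIs, and that led by cardiac muscle genes 0, 0 and 5. Over the class col6a2 was at 28.8, 20.7 and 30.2 CPM, and col6a1 at 54.7, 33.6 and 48.8. In head mesenchyme-like cells col6a1 was at 35.01, 43.7 and 43.8 CPM, above the lateral plate value in shox2Δ/Δ only.

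Among the other FACIT genes, whose products cross-bridge type I fibrils, col12a1a was highest in head mesenchyme-like cells at 372, 318 and 360 CPM. The gene col14a1a was found in otic-like cells at 98.8 CPM (90.6 to 107), 182 (170 to 195) and 146 (135 to 158). It was also high in epidermis-like cells, so that the class of its highest level was epidermis-like in WT and otic-like in the other libraries. Within the lateral plate mesoderm-like class, the cluster led by cardiac muscle genes had it at 264, 186 and 150 CPM. That was above the otic-like value in each library, though by little in shox2Δ/Δ and shox2Δ/+. The gene col28a2a, of the von Willebrand domain type XXVIII, was found in epidermis-like cells at 484, 245 and 263 CPM.

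The otic-like cells thus held a mixed and moderate set. These cells were at 6249 to 8632 CPM for the summed otic markers, with hmx2 at 87.5, 69.0 and 49.0 CPM. Of their collagen UMIs 40.7% were fibrillar, 31.2% FACIT, 16.1% type IV and 11.6% multiplexin, against 76.8%, 16.7%, 5.05% and 0.769% in head mesenchyme-like cells. The largest smallest folds over all other kept cells in otic-like cells were 3.13 for col14a1a, 2.96 for col15a1b, 2.24 for col27a1b and 2.18 for col9a1b. Crest-like cells, the neural crest and its arch derivatives, held the least raised set. Among collagens with at least 100 UMIs in these cells, the highest smallest fold was 0.645, for col12a1a.

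Within the epidermis-like class 2 of the 3 clusters held collagens at high level, and 1 had little. A cluster led by cfd, lum and thy1, with 77 WT, 119 shox2Δ/Δ and 111 shox2Δ/+ cells, was at 11988, 9873 and 11027 CPM of summed collagens. Its name rested on 8 raised epidermis markers, a share of 0.5 of the list, with 0 among its 10 leading genes. The next list was pharyngeal arch mesenchyme, at a share of 0.333. The cluster led by agr1 had 14 epidermis markers raised, a share of 0.875, with 4 among its leading genes. A cluster led by agr1 and the keratin genes krt17 and krt5, with 53, 111 and 123 cells, was at 152, 160 and 43.1 CPM. A cluster led by the ionocyte genes foxi3a and foxi3b, with 18, 33 and 32 cells, was at 2225, 2377 and 1811 CPM. For example, col1a2 was at 1733, 1339 and 1610 CPM in the first, 10.7, 16.3 and 3.81 in the second, and 329, 254 and 242 in the third. Likewise col7a1 was at 437, 324 and 362 CPM, against 2.85, 3.80 and 0.401 and then 87.5, 99.2 and 50.9.

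A small placodal ectoderm-like cluster led by ins, kera and tnn held 41 WT, 31 shox2Δ/Δ and 44 shox2Δ/+ cells. It was named from gata3, eya2, dlx3b, dlx4b and foxi1, though none of these was among its 10 leading genes. Those leading genes included the collagens col4a4, col28a2a and col4a3. The cluster held collagens also found in epidermis-like cells, and its summed collagens were at 19151, 12682 and 14735 CPM. There col1a1a was at 3146 CPM (3049 to 3246), 1980 (1898 to 2065) and 2443 (2373 to 2515), col28a2a at 1475, 973 and 1340, and col4a4 at 191, 120 and 107. In this cluster WT had the highest value of each of these genes.

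**Figure D3:**
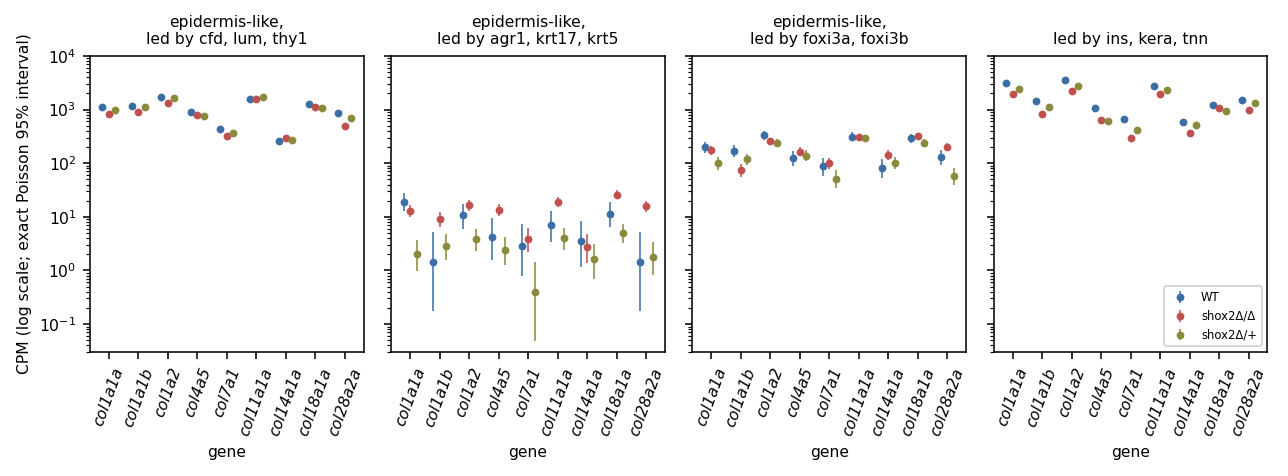
Levels (CPM, log axis) of 9 collagen genes in the 3 epidermis-like clusters and in the small cluster led by ins, kera and tnn, with points for the 3 libraries and bars for exact Poisson 95% intervals. The cluster led by agr1, krt17 and krt5 lies far below the others for every gene, while the clusters led by cfd and by ins reach the highest levels.

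Libraries were then compared within each class. A gene entered where its UMIs in both libraries summed to at least 100, and its log2 ratio of CPM is given less the median over all such genes (a shift of between -0.10 and 0.12 according to class and libraries). Both comparisons with WT use the same WT library, so a value that is odd in WT appears in both. Ratios are descriptions of these libraries.

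In head mesenchyme-like cells 8 of 27 collagens lay past 1.5-fold between shox2Δ/Δ and WT, 2 higher and 6 lower, while 17.1% of all genes did. The median of the 27 was -0.27. Higher in shox2Δ/Δ were col18a1a, by 1.26 on the log2 scale (15.96 CPM in WT, 40.9 in shox2Δ/Δ and 26.4 in shox2Δ/+), and col15a1b, by 1.07 (25.9, 58.2 and 54.3 CPM). Lower were col14a1a at -1.29, col9a2 at -0.98, col12a1b at -0.88, col11a1b and col11a2 at -0.66 each, and col5a2a at -0.61. Between shox2Δ/+ and WT 4 of 27 lay past the limit (15.0% of all genes), and between shox2Δ/Δ and shox2Δ/+ 2 of 26 (2.65%), namely col11a2 at -0.80 and col9a1b at -0.63. The fibrillar genes of high level lay within the limit, with col5a1 at -0.05, col2a1b at -0.06, col1a1a at -0.27, col2a1a at -0.31, col11a1a at -0.34 and col1a2 at -0.41.

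In crest-like cells nearly every collagen that could be compared differed from WT. Of 16 collagens, 14 lay past 1.5-fold between shox2Δ/Δ and WT, 7 in each direction, against 19.9% of all genes. Lower were 6 of 8 fibrillar genes and the type VI gene col6a1. For col6a1 there were 138 UMIs in WT, found in 72 of 517 cells, and 3 in shox2Δ/Δ and 8 in shox2Δ/+, a ratio of -4.69. The type I genes col1a1b, col1a2 and col1a1a were at -2.29, -1.49 and -1.08, col2a1b at -1.42 (79.7, 30.5 and 42.2 CPM), col11a1b at -1.11 and col5a1 at -1.05. Higher were col15a1b at 2.28 (9.81, 48.8 and 41.3 CPM), col9a3 at 2.14, col14a1a at 1.45, the fibrillar gene col2a1a at 1.22, col18a1a at 0.93, col4a5 at 0.84 and col12a1a at 0.59, while the fibrillar gene col11a1a at 0.52 lay within the limit. These opposite moves left the summed level near that of WT. Of the lower genes, col1a2, col5a1 and col11a1b were at 23.3, 71.7 and 18.4 CPM in WT crest-like cells. In the 18 WT myeloid-like cells, expected to hold little collagen, they were higher, at 76.9, 137 and 25.6 CPM. Lower there than in WT crest-like cells were col1a1a, col2a1b, col1a1b and col6a1, at 40.3, 18.3, 7.32 and 0 CPM. Whether these UMIs shared a source was not tested.

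Between shox2Δ/+ and WT 15 of 19 collagens lay past the limit in crest-like cells (17.9% of all genes), and between shox2Δ/Δ and shox2Δ/+ 0 of 16 (2.9%). Of the mutant crest-like cells, 63 of 396 were among those with a shared barcode and few UMIs. The class consists of a cluster led by dlx2a and grem2b, genes of the pharyngeal arches, and one led by foxd3 and crestin, genes of migrating crest. In the first col15a1b was at 8.22, 34.7 and 37.7 CPM and in the second at 11.1, 59.2 and 44.8, so the libraries differed in the same way in both. For col12a1a they did not: it was at 44.9, 10.0 and 17.5 CPM in the first and at 24.6, 82.3 and 61.1 in the second.

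In otic-like cells 10 of 17 collagens lay past 1.5-fold between shox2Δ/Δ and WT, 3 higher and 7 lower, against 18.8% of all genes, with a median of -0.38. Higher in shox2Δ/Δ were col14a1a at 0.80, col5a1 at 0.75 (156, 277 and 237 CPM) and col9a3 at 0.75 (51.5, 91.8 and 76.3 CPM). The FACIT gene col12a1a was at 55.0 CPM (48.9 to 61.6) in WT, 17.6 (13.98 to 21.8) in shox2Δ/Δ and 18.4 (14.5 to 23.02) in shox2Δ/+, with UMIs in 111 of 252, 43 of 214 and 37 of 198 cells. Its ratio was -1.72. Also lower were col11a1b at -1.10, col9a1a at -0.87, col4a6 at -0.68 and col9a1b at -0.62.

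The lowest ratio in otic-like cells, that of col1a1a at -2.88, rested on few cells. Its 130 WT UMIs lay in 16 of 252 cells, 103 of them in 4 cells, and there were 16 UMIs in each of the other libraries. For col1a2, at -1.90, 137 of 190 WT UMIs lay in 4 cells. The head mesenchyme markers, 11 of 12 detected, summed to 559 CPM in WT, 771 in shox2Δ/Δ and 707 in shox2Δ/+ otic-like cells, and their part in these values was not tested. These sums are over the whole class and do not describe the few cells that held the type I UMIs. For shox2Δ/+ against WT 5 of 17 collagens lay past the limit (16.2% of all genes), and between shox2Δ/Δ and shox2Δ/+ 0 of 14 (4.37%).

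In floor plate-like cells 5 of 14 collagens lay past 1.5-fold between shox2Δ/Δ and WT, all lower, against 24.7% of all genes, and the median was -0.45. Besides col11a2 these were col14a1a at -1.35 (105, 44.4 and 47.1 CPM), col9a3 and col4a6 at -0.71 each, and col2a1a at -0.63. The type IX genes col9a1b and col9a2 were at -0.06 and -0.09. Median UMIs per floor plate-like cell were 14058.5 in WT, 9334 in shox2Δ/Δ and 9415.5 in shox2Δ/+, and the summed floor plate markers 10932, 8121 and 8685 CPM. For shox2Δ/+ against WT 3 of 15 lay past the limit (20.8% of all genes), and between shox2Δ/Δ and shox2Δ/+ 0 of 14 (4.2%).

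In epidermis-like cells 12 of 23 collagens lay past 1.5-fold between shox2Δ/Δ and WT, 2 higher and 10 lower, against 20.5% of all genes, with a median of -0.47. The lowest were col12a1a at -1.62, col12a1b at -1.19 and col28a2a at -0.99. In a coarser clustering (Leiden resolution 0.5) the count past the limit was 4, and col12a1b and col28a2a were higher, at 0.87 and 0.67. The collagen-poor cluster led by agr1 made up 53 of 148 WT, 111 of 263 shox2Δ/Δ and 123 of 266 shox2Δ/+ cells. Its cells were deep, with a median of 2.29 times the median UMIs of their library. That value was 1.72 in the cluster led by cfd and 0.989 in the ionocyte cluster. Since a class level sums UMIs, the cluster led by agr1 weighed more than its share of cells. Within the cluster led by cfd the ratios of col12a1a, col12a1b and col28a2a were -1.45, -1.12 and -0.96, those of col1a1a, col1a1b and col1a2 -0.59, -0.51 and -0.50. The high value of col2a1a, 1.42 over the class, came from 235 mutant UMIs of which 100 lay in 1 cell. Between shox2Δ/+ and WT 9 of 22 lay past the limit (23.0% of all genes), and between shox2Δ/Δ and shox2Δ/+ 1 of 23 (5.37%), which was col2a1a. Of those 9, col12a1a, col4a3 and col12a1b also lay past it within the cluster led by cfd, at -1.03, -0.90 and -0.64. The others were within the limit there, with col4a6 at -0.43, col28a2a at -0.37, col7a1 and col4a5 at -0.30 each, col18a1a at -0.25 and col1a1a at -0.24.

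In neural-like cells collagens were mostly higher than in WT: 11 of 24 lay past 1.5-fold between shox2Δ/Δ and WT, 9 higher and 2 lower, against 27.6% of all genes, with a median of 0.42. The highest was col15a1b at 2.95, with 454 UMIs in WT, 2929 in shox2Δ/Δ and 3131 in shox2Δ/+, or 7.12, 57.1 and 51.6 CPM. In shox2Δ/Δ and shox2Δ/+ most of these UMIs lay in 1 cluster whose leading genes include egr2b, a gene of hindbrain rhombomeres, mpz and col15a1b itself, though collagens were left out of the clustering. It held 14 WT, 349 shox2Δ/Δ and 414 shox2Δ/+ cells, with 29, 2002 and 2393 UMIs of col15a1b, and 127, 296 and 330 CPM. Over the clusters with at least 50 cells in every library, an alternative added after seeing the data, the ratio of col15a1b was 1.55 rather than 2.95.

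The libraries thus differed in which neural-like clusters they filled. Another neural-like cluster held 900 WT cells, 7 shox2Δ/Δ and 13 shox2Δ/+ cells, and had col15a1b at 1.69 CPM in WT. A cluster led by atoh1a, olig3 and msx3 held 1139 WT, 24 shox2Δ/Δ and 69 shox2Δ/+ cells. Its best list was neural progenitor, but it stayed unnamed and is not among the neural-like cells. The neural-like ratios to WT are thus not between like sets of cells. In a neural-like cluster held by all libraries, with 322, 324 and 440 cells, col15a1b was at 24.2, 41.5 and 34.9 CPM. Other genes past the limit were col1a1a at 1.51 (2.93, 8.67 and 13.9 CPM), col9a1b at 1.07, col12a1a at 1.04, col18a1a and col14a1a at 0.86 each, col27a1b at 0.85, col9a2 at 0.83 and col4a5 at 0.74, with col7a1 at -0.65 and col7a1l at -0.60. Between shox2Δ/+ and WT 10 of 23 lay past it (24.6% of all genes), and between shox2Δ/Δ and shox2Δ/+ 3 of 23 (4.21%).

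In lateral plate mesoderm-like cells 6 of 22 collagens lay past 1.5-fold between shox2Δ/Δ and WT, 3 in each direction, against 15.9% of all genes. The lowest were col11a1a at -1.30, col11a1b at -0.96 and col6a1 at -0.77, and the highest col7a1l at 0.80, col5a3a at 0.75 and col4a2 at 0.60. For col5a3a 69 of 129 mutant UMIs and 41 of 104 WT UMIs lay in 4 cells each. Without those cells it was at 9.42 CPM in shox2Δ/Δ and 6.96 in WT. Between shox2Δ/+ and WT 9 of 23 lay past the limit (15.6% of all genes), 7 higher and 2 lower. Of the higher genes, col1a1a and col1a2 did not stay higher without the 4 highest cells of each library. Without them col1a1a was at 6.79 CPM in shox2Δ/+ and 9.06 in WT, and col1a2 at 12.4 and 12.6. The others, col2a1a, col4a2, col5a3a, col6a3 and col7a1l, stayed above WT. This was a class where shox2Δ/Δ and shox2Δ/+ also differed, with 8 of 23 past the limit and all 8 lower in shox2Δ/Δ (5.29%). Over the clusters with at least 50 cells in every library this count was 5. The 8 included col1a1a at -1.30 and col1a2 at -1.03, which rested on few cells: 116 of 169 shox2Δ/+ UMIs of col1a1a and 107 of 204 of col1a2 lay in 4 cells each. Without the 4 highest cells of each library, col1a1a was at 5.96 CPM in shox2Δ/Δ and 6.79 in shox2Δ/+, and col1a2 at 9.73 and 12.4. Also lower were the type VI genes col6a3 at -0.65 and col6a1 and col6a2 at -0.62 each.

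In endothelium-like cells 5 of 11 lay past 1.5-fold between shox2Δ/Δ and WT (16.3% of all genes), 3 of 10 between shox2Δ/+ and WT (13.9%) and 5 of 8 between shox2Δ/Δ and shox2Δ/+ (5.26%). Higher in shox2Δ/Δ than in WT were col11a1a at 1.32, col5a1 at 0.90 (131, 255 and 142 CPM), col1a1a at 0.73 and col2a1b at 0.71, and col18a1a was at -0.69. For col1a1a 79 of 130 mutant UMIs and 59 of 131 WT UMIs lay in 4 cells each, and for col11a1a 52 of 85 and 35 of 57. For col5a1 123 of 393 mutant and 111 of 353 WT UMIs did, in 47 of 113 and 65 of 142 cells with the gene, and without those 4 cells it was at 175 and 89.7 CPM. The basement membrane genes col4a1 and col4a2 were at -0.52 and -0.23.

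Genes that make, trim, crosslink, bind or break down collagen were read from 8 lists of 125 genes, of which 96 had at least 100 UMIs. Of these, 23 were at least 4-fold higher in head mesenchyme-like cells in all 3 libraries (2.1% of all genes), 12 in floor plate-like cells (4.74%), 7 in epidermis-like cells (7.37%), 6 in endothelium-like cells (3.91%), 4 in otic-like cells (2.03%), 3 in lateral plate mesoderm-like cells (2.82%), 2 in crest-like cells (0.538%) and 0 in neural-like cells (0.834%). Between shox2Δ/Δ and WT, 12 of 57 lay more than 1.5-fold higher and 3 lower in head mesenchyme-like cells, where 17.1% of all genes did so in either direction. The counts were 16 and 0 of 39 in otic-like (18.8%), 12 and 1 of 48 in crest-like (19.9%), 19 and 7 of 58 in neural-like (27.6%) and 2 and 9 of 31 in floor plate-like cells (24.7%). In lateral plate mesoderm-like cells they were 9 and 4 of 46 (15.9%), in epidermis-like cells 4 and 2 of 43 (20.5%) and in endothelium-like cells 7 and 3 of 33 (16.3%).

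The floor plate-like cells carried crosslinking and lysine-modifying enzymes beside their collagens. The lysyl oxidase gene loxl5b was at 1762, 1265 and 1421 CPM there and at most 2.19 CPM in head mesenchyme-like, lateral plate mesoderm-like, crest-like, otic-like, epidermis-like, neural-like and endothelium-like cells. The lysyl hydroxylase and glycosyltransferase gene plod3 was at 1384, 1241 and 1392 CPM, against 188, 304 and 264 in head mesenchyme-like cells. The collagen receptor gene ddr1 was at 146, 94.0 and 104 CPM. Head mesenchyme-like cells carried pcolcea, whose product speeds procollagen trimming, at 81.8, 141 and 127 CPM, below the 140, 380 and 270 CPM of lateral plate mesoderm-like cells, and the integrin gene itga11a, of the type that binds fibrillar collagen, at 44.4, 54.6 and 50.4.

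The partners of basement membranes had their own classes. The gene sparc, whose product binds collagen, was at 2862, 2521 and 2662 CPM in otic-like and 4062, 2576 and 3543 in floor plate-like cells. The nidogen gene nid2a was at 379, 332 and 248 CPM in epidermis-like cells, and at 37.2, 94.99 and 67.2 in otic-like cells. The regulator genes sox10 and sox6 were at 394, 404 and 400 and 240, 234 and 234 CPM in otic-like cells. In neural-like cells sox9b, a regulator of col2a1a in cartilage, was at 52.9, 18.1 and 25.6 CPM while col2a1a was at 90.6, 116 and 117.

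How many folding genes differed from WT varied with the class. In the list of folding and hydroxylation, 9 of 15 genes in otic-like and 12 of 19 in neural-like cells lay more than 1.5-fold higher in shox2Δ/Δ than in WT, with 0 and 2 lower, against 18.8% and 27.6% of all genes in either direction. In head mesenchyme-like cells 6 of 19 were higher and 0 lower (17.1%), and in crest-like cells 6 of 16 and 0 (19.9%). The counts were 4 and 1 of 17 in lateral plate mesoderm-like (15.9%), 4 and 1 of 15 in endothelium-like (16.3%), 3 and 0 of 17 in epidermis-like (20.5%) and 1 and 2 of 15 in floor plate-like cells (24.7%). The collagen chaperone gene serpinh1b, a heat-shock protein, was at 185, 521 and 362 CPM in head mesenchyme-like cells, 52.6, 290 and 168 in otic-like, 22.7, 182 and 113 in crest-like and 3.53, 48.3 and 33.2 in neural-like cells. The median share of mitochondrial UMIs in kept cells ran in the same order, at 1.88%, 2.7004% and 2.51%, and its part in these values was not tested. The gene serpinh1b was chosen for mention after its values were seen, as were its duplicate serpinh1a and plod3. In neural-like cells serpinh1a was at 16.4, 3.35 and 3.11 CPM, the other way round. The abundant foldase gene ppib was at 966, 1004 and 999 CPM in head mesenchyme-like cells, and p4hb, a subunit of prolyl hydroxylase, at 144, 232 and 200. The protease gene mmp2 was at 162, 306 and 275 CPM there and at 42.8, 121 and 109 in crest-like cells.

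**Figure D4:**
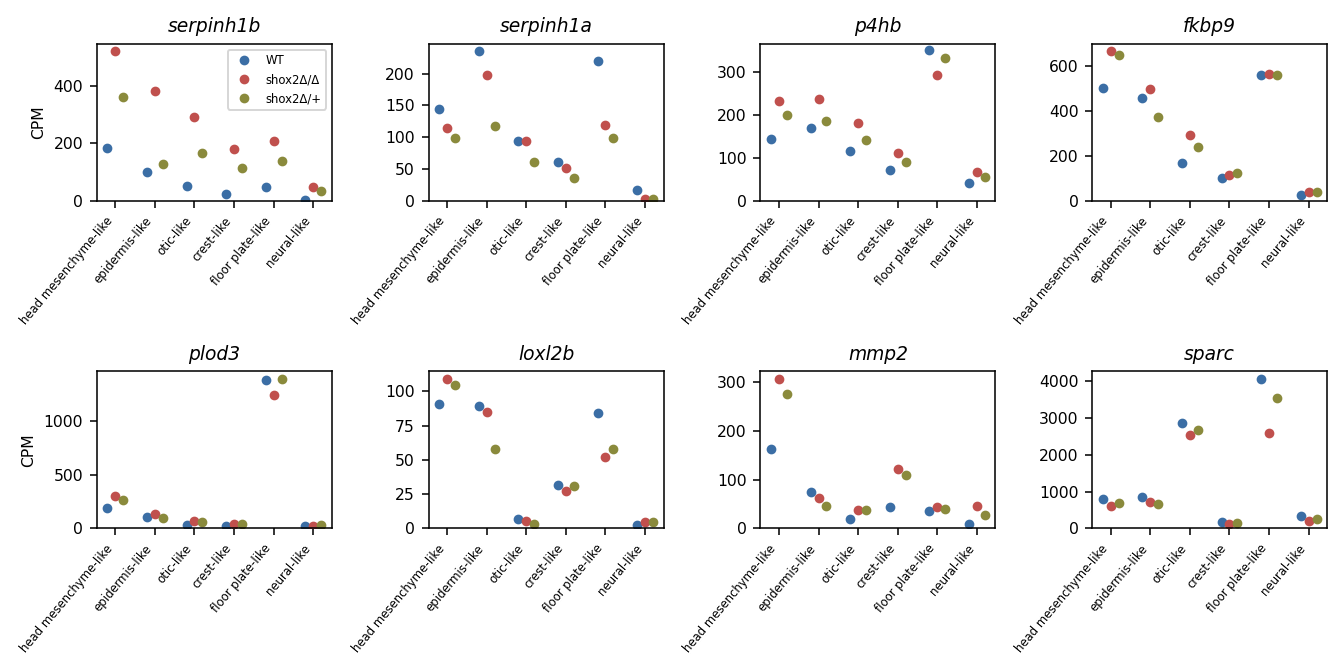
Levels (CPM, linear axes) of 8 collagen folding, crosslinking, breakdown and binding genes in 6 cell classes, with 1 point for each library. The chaperone gene serpinh1b is highest in shox2Δ/Δ and lowest in WT in each class, plod3 stands out in floor plate-like cells, and sparc in otic-like and floor plate-like cells.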

How the data were processed

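The deposited files hold raw UMI counts, 1 matrix of genes by cells for each library. Per the file headers they came from Cell Ranger version 4.0.0, the genome was GRCz11 to which the authors had appended DsRed and EGFP, and the matrices list 10466, 8877 and 10419 barcodes called as cells. Libraries were 10x 3′ libraries, so UMIs count transcript ends and need no scaling by gene length. Cells were kept from 500 up to but not including 6500 genes where mitochondrial UMIs made up under 5%. Total depth of kept cells was 176280326 UMIs in WT, 131099920 in shox2Δ/Δ and 157573577 in shox2Δ/+.

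Cells were log-normalized and clustered with Scanpy 1.11.5 and Leiden 0.10.2 into 40 clusters, of which 31 were named from 21 marker lists. Collagen genes and reporters were left out of the variable genes. The members, lists and markers were chosen with earlier results of these data known, and how clusters were named was decided with the clusters in view. The doublet caller Scrublet marked 0 cells, so it did not work and no cells were removed by it. Libraries shared 1089 to 2083 barcodes.

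UMIs were summed per library and class. Levels have exact Poisson intervals and ratios exact binomial intervals (95%), made with SciPy 1.17.1. A count of 0 was set to 3 UMIs in a ratio. No test was run, since each genotype had 1 library. The ratios were checked on simulated counts with known changes, drawn as Poisson counts from the sums of otic-like cells. That check covers counting error only, since the simulated counts held no spread between cells, clusters or embryos. Named were, by class, the 5 collagens with the highest smallest fold, the 3 highest and 3 lowest ratios, and all sets of partner chains and duplicates, and in each pathway list the 3 genes with most UMIs. Gene names and neighbours came from RefSeq (GRCz12tu), where all 52 symbols matched, and no coordinates were used. Alternatives were other clusterings, filters, minimum counts, limits and means over cells.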

Additional observations from a re-analysis of the deposited data

Results flagged for a closer look

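Some collagens moved in opposite directions between shox2Δ/Δ and WT in different classes, with the whole 95% interval of each ratio past 1.5-fold, on opposite sides. These differences were not tested, since each genotype had 1 library, and each is given as the difference of 2 log2 ratios, each less the median of its class.

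For col1a1a the ratio in neural-like cells was above that in otic-like cells by 4.39, in crest-like cells by 2.59 and in epidermis-like cells by 2.22. In otic-like cells 103 of the 130 WT UMIs of col1a1a lay in 4 cells, and the libraries filled the neural-like clusters differently. Within the epidermis-like cluster led by cfd the ratio of col1a1a was -0.589 (-0.665 to -0.513), an interval not wholly past 1.5-fold. For col12a1a the ratio in neural-like cells was above that in otic-like cells by 2.77 and in epidermis-like cells by 2.66. For col14a1a the ratio in crest-like cells exceeded that in floor plate-like cells by 2.80 and in head mesenchyme-like cells by 2.74. Its ratio in neural-like cells exceeded those classes by 2.21 and 2.16, and its ratio in otic-like cells by 2.15 and 2.099.

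For col5a1, a ratio of -1.05 in crest-like cells lay below that in endothelium-like cells by 1.95 and in otic-like cells by 1.80. The ratio of col9a3 in crest-like cells was above that in floor plate-like cells by 2.84. The ratio of col11a1a in endothelium-like cells was above that in lateral plate mesoderm-like cells by 2.62.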

How the results depend on the processing

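With 1 library per genotype, every value rests on single libraries, and what depth allows is set by the 100-UMI minimum. No paired analysis was possible because each group has 1 sample. The 32 genes with the same highest class stayed within 1.5 times of that count under every alternative, and leaving out the cells with shared barcodes and few UMIs, an alternative chosen after seeing the data, moved no count past 1.5 times. Keeping only clusters of at least 50 cells in every library, also added later, moved 3 counts by class: shox2Δ/Δ against shox2Δ/+ became 5 in lateral plate mesoderm-like and 5 in neural-like cells, and shox2Δ/+ against WT 6 in neural-like cells. With no regression the order of classes was shared for 2 places rather than 4.

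The count at least 4-fold higher in lateral plate mesoderm-like cells was 2 at Leiden resolution 0.5 rather than 5. In epidermis-like cells it was 0 at resolution 0.5, 17 with no regression, 14 with means over cells and 18 at a limit of 2-fold, rather than 9, and in otic-like cells 4 at 2-fold rather than 0.

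Counts past 1.5-fold between shox2Δ/Δ and WT changed as follows. At resolution 0.5 they were 0 in lateral plate mesoderm-like and 4 in epidermis-like cells, at resolution 2 they were 3 and with no regression 10 in lateral plate mesoderm-like cells. With means over cells they were 6 in otic-like, 9 in floor plate-like and 3 in endothelium-like cells, and 3 in the last without the highest doublet scores. Without centering on the median the head mesenchyme-like count was 5. At 2-fold the counts were 3 in head mesenchyme-like, 1 in lateral plate mesoderm-like, 4 in otic-like, 2 in floor plate-like, 3 in epidermis-like, 4 in neural-like and 1 in endothelium-like cells. A minimum of 20 UMIs gave 10 in lateral plate mesoderm-like, 22 in crest-like, 10 in floor plate-like and 14 in endothelium-like cells. A minimum of 500 UMIs gave 1, 8, 1 and 1 there, 5 in otic-like and 7 in neural-like cells. Summed over classes, the 58 counts between shox2Δ/+ and WT became 26 at 2-fold, 96 at 20 UMIs and 26 at 500 UMIs, and the 19 between shox2Δ/Δ and shox2Δ/+ became 4, 51 and 7.

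The ratio of shox2Δ/Δ over WT changed sign in these cases. At resolution 0.5 col11a1b in lateral plate mesoderm-like cells was 0.52, col28a2a and col12a1b in epidermis-like cells 0.67 and 0.87, and col9a2 in neural-like cells -0.34 (-0.42 with cells under 10% mitochondrial UMIs). At resolution 2 col4a2 in lateral plate mesoderm-like cells was -0.064, and with no regression col7a1l in epidermis-like cells -0.15. In endothelium-like cells col18a1a was 0.69 without the highest doublet scores and 0.55 with means over cells, which put col1a2 in otic-like cells at 0.28. The cause of these changes was not tested.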

Other observations

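Collagens were also found in cells outside the classes compared. An unnamed cluster of 896 cells led by krt15, foxi1 and hmx2 held collagens also found in epidermis-like cells. There col1a1a was at 465 CPM in WT, 173 in shox2Δ/Δ and 174 in shox2Δ/+, col18a1a at 455, 434 and 377, and col14a1a at 259, 220 and 239. Pharyngeal endoderm-like cells had summed collagens at 1481, 1577 and 1569 CPM, with col2a1a at 306, 688 and 525 CPM and col5a1 at 112, 130 and 162.

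Among cells expected to hold little collagen, the 18, 24 and 22 myeloid-like cells had col2a1a at 3.66, 2.59 and 0 CPM. Their col5a1 was at 137, 24.6 and 5.83 CPM, their col1a2 at 76.9, 1.30 and 1.94, and their col1a1a at 40.3, 1.30 and 0. Among the genes lowest in WT were col12a1a at 0, 14.3 and 5.83 CPM and col4a5 at 0, 6.48 and 9.72. The source of these UMIs was not tested.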
